A study of Homo sapiens with 12 samples.

Results

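The genes described here were 42 genes of DNA damage signalling, the Fanconi anemia pathway, homologous recombination and end joining, taken by name from the 35238 genes of the deposited expression table. All 42 were found, and all 42 passed the filter on low values in each comparison. The bulk RNA sequencing was of HK-2, an immortalized human kidney proximal tubule cell line. Cells were transfected at the same time as treatment with 10 nM of a scrambled short interfering RNA (siRNA, SCR) or of siRNA B against POLR2A (siB), and received 25 µM aristolochic acid I (AAI) or the vehicle DMSO for 24 hours. The 4 groups were SCR DMSO, SCR AAI, siB DMSO and siB AAI, with 3 libraries each and 12 in all. The groups follow the sample titles, since the treatment field of the labels reads DMSO for all 12. The knockdown was transient and partial, all cells came from 1 line, and every group carried an siRNA.

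AAI is a plant nephrotoxin whose metabolites bind covalently to DNA bases. Stalled replication forks and broken ends are sensed by the kinases ATR and ATM, which halt the cell cycle and mark the surrounding chromatin. The Fanconi proteins unhook crosslinked strands, recombination copies the lost sequence from the sister chromatid, and end joining ligates broken ends directly. Many of these genes are transcribed mostly in S and G2 phase, so that their RNA also moves with the cell cycle.

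Depth ran from 15844015 to 42805294 reads per library. Levels are counts per 1e+06 reads (CPM), and a change is a difference of log2(CPM + 1) with the standard error (SE) and adjusted p from limma. POLR2A ran from 258 to 306 CPM in SCR DMSO and from 138 to 143 CPM in siB DMSO. In AAI it ran from 673 to 729 CPM in SCR cells and from 210.3 to 266 CPM in siB cells, so that the target was lower in every siB library than in every SCR library of the same treatment. Its difference passed under AAI (-1.61) but not under DMSO (-1.01). As to the labelled cell type, 8 of 17 proximal tubule and epithelial markers had a mean under 1 CPM in SCR DMSO. Among them were the endocytosis receptor LRP2 and the organic anion transporters SLC22A6 and SLC22A8. The highest means of the list there were those of KRT8 (646 CPM), PAX8 (392), KRT18 (382), KRT19 (355), EPCAM (161) and GGT1 (130 CPM). No label states that replicates came from separate cultures, so the p-values measure only the spread between these libraries, which may be technical.

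SCR DMSO replicate 2, the deepest library, stood apart from the other libraries of its group in these genes. Its median level over the 42 genes was 4.16 on the log2(CPM + 1) scale, against 5.77 and 5.29 in replicates 1 and 3, and 4.92 to 5.77 in the other 9 libraries. BRCA2 was at 3.78 CPM in it and at 29.3 and 24.0 CPM in the others of its group, and NBN at 15.0 against 137 and 74.2 CPM. The same library was low in long genes in general: the mean log2 level of genes over 100 kb minus that of genes under 30 kb was -0.44 in it and 0.49 and 0.32 in its group. Calls and medians of the 42 genes that rest on SCR DMSO are therefore also given without it, while counts of genes without overlap include it.

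**Figure D1:**
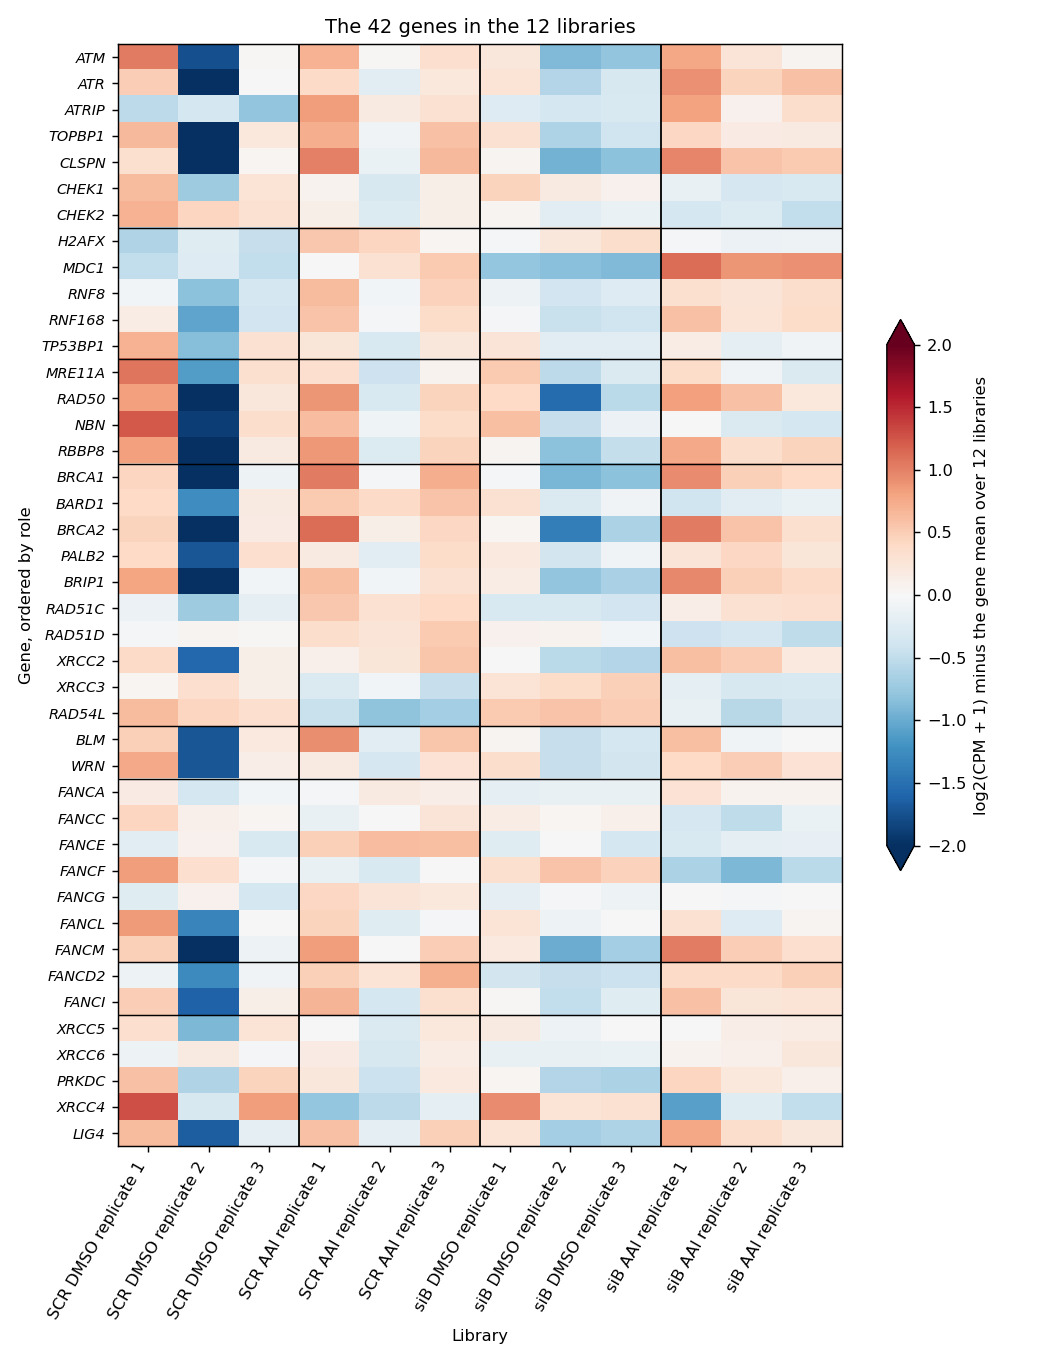
The 42 genes (rows, by role: checkpoint kinases, chromatin marking, end resection, recombination, RecQ helicases, Fanconi core, Fanconi ID complex, end joining) in the 12 libraries (columns), coloured by log2(CPM + 1) minus the gene's mean over the 12 libraries, with colours ending at -2 and 2. SCR DMSO replicate 2 is the dark blue column, and MDC1 is highest in the 3 siB AAI libraries.

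Compared per kb of the canonical transcript, the Ku subunit XRCC6 had the highest mean level over the 12 libraries at 266 CPM per kb. H2AFX, which encodes histone H2A.X, followed at 192, then the other Ku subunit XRCC5 at 116 and PRKDC, the catalytic subunit of the DNA-dependent protein kinase, at 57.1 CPM per kb. At the other end stood XRCC4 at 1.92, BRCA2 at 2.12, FANCM at 2.19 and LIG4 at 2.397 CPM per kb. The RNA of the end joining genes thus spanned both ends of the order. The genes of the break-binding Ku subunits stood near the top and those of the ligase pair XRCC4 and LIG4 near the bottom. Poly-A selected RNA was sequenced, and H2AFX has transcripts with and without a poly-A tail, so its level covers the tailed form.

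By genomic span in the annotation, 9 of the 42 genes were short (under 30 kb), 23 medium and 10 long (over 100 kb). Among all genes with a mean of at least 1 CPM, 47.9% were short, 33.0% medium and 19.2% long, so the medium class was fuller here. On hg38, 20 of the 42 genes overlap another coding gene and 30 overlap a gene of the other strand. Whether reads were counted by strand was not given in the sources used here, so reads of such pairs cannot be told apart where they overlap.

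Promoter windows, 250 bases before to 50 after the start, were available from RefSeq (GRCh38.p14) for 37 of the 42 genes, and 33 of these began within 200 bases of the canonical transcript's start. The windows for NBN, WRN, FANCI, XRCC5 and PRKDC were not used here. Because many of the genes are cell cycle genes, 3 kinds of motif tied to such promoters were searched on both strands. These were E2F (TTTCCCGC, TTTCGCGC, TTTGCCGC or TTTGGCGC), the cell cycle homology region (CHR, TTTGAA) and the CCAAT box (CCAAT). No matches shared bases in the 37 windows. An E2F match was in 7 of the 37 windows, against 3.33% of all 27305 promoters and 5.15% of those of 11040 expressed genes. A CHR match was in 5 of 37, against 15.4% of all and 9.50% of expressed promoters, and a CCAAT match in 20 of 37, against 35.7% and 36.5%. Matches are a description of the letters and not of bound factors.

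The 250 bases before the start are shown for MDC1, BRCA2, CLSPN and FANCF, with matches in capitals. These 4 come first among the genes that passed without overlap, by size of change, once windows over 200 bases from the canonical start are passed over. MDC1 lies at chr6:30717282-30717531 (minus strand), BRCA2 at chr13:32315258-32315507 (plus strand), CLSPN at chr1:35769979-35770228 (minus strand) and FANCF at chr11:22625824-22626073 (minus strand). The capitals mark CCAAT boxes in MDC1, CLSPN (read on the other strand) and FANCF, and in MDC1 also 1 CHR match.
MDC1: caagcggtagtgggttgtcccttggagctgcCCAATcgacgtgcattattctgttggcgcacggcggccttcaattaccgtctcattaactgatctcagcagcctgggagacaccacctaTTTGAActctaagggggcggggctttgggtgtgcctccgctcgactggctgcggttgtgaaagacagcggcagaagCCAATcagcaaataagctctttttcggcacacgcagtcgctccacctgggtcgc
BRCA2: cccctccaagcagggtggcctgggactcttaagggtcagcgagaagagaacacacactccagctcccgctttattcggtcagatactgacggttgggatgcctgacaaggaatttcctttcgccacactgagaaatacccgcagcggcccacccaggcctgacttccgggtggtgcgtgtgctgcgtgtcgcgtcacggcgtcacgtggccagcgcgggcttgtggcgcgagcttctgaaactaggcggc
CLSPN: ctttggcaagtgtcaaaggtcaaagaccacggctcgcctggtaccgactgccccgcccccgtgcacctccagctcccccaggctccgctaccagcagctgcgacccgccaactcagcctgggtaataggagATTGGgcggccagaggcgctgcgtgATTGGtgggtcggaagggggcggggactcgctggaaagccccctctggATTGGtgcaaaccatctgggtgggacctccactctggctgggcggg
FANCF: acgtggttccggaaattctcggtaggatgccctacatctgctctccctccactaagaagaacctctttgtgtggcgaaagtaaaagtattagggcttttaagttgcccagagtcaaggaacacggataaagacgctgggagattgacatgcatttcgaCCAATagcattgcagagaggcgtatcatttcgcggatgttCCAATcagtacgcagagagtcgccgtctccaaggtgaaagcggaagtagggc
CLSPN also had 1 E2F match that begins 5 bases before the start and runs past it, and is not capitalized. BRCA2 had no match to the searched letters in this window, which says only that these letters are not in it.

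The first comparison asked how AAI moved these genes in cells given the scrambled siRNA (SCR AAI against SCR DMSO), where POLR2A itself rose by 1.32. With all libraries, 1 of the 42 genes passed: RAD54L, a DNA translocase of strand invasion, fell to 0.455 of its DMSO mean. None passed as higher, at an adjusted p under 0.05 or with the 2-fold limit added. Of the 42 genes 32 lay above 0, against 61.8% of all genes tested. Of the 14228 genes tested, 8.98% passed as higher (7.73% with the 2-fold limit) and 3.36% as lower (2.73% with it). The median change was 0.62 over the 42 genes and 0.18 over all genes, but without SCR DMSO replicate 2 it was -0.05 over the 42 genes and 0.064 over all genes.

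RAD54L was at 58.8, 50.9 and 48.1 CPM in SCR DMSO replicates 1 to 3 and at 27.3, 21.1 and 23.3 CPM in SCR AAI. The groups did not overlap. Its log2 change was -1.11 (SE 0.22, adjusted p = 0.0165), and -1.13 without SCR DMSO replicate 2. The call was lost without SCR DMSO replicate 3 or without SCR AAI replicate 2 or 3. Of the neighbouring gene that overlaps it on the other strand, LRRC41, the change was -0.62 (adjusted p = 0.111).

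Of the 5 genes that mark chromatin at breaks, H2AFX and MDC1 lay higher in SCR AAI and came close to the threshold. RNF8 (0.76, adjusted p = 0.149) and RNF168 (0.73, 0.213) were further from it, with groups that overlapped. TP53BP1 was level (0.0057, adjusted p = 0.994). H2AFX was at 195, 250.4 and 217 CPM in SCR DMSO and at 431, 400.4 and 304 CPM in SCR AAI. MDC1, the scaffold that binds phosphorylated H2A.X, was at 90.4, 107 and 90.6 CPM in SCR DMSO and at 127, 159 and 185 CPM in SCR AAI. Neither gene overlapped between the groups. The changes were 0.77 (SE 0.22, adjusted p = 0.0597) for H2AFX and 0.69 (SE 0.22, adjusted p = 0.0819) for MDC1, and neither passed. Both passed with the replicate block and with all 4 groups in the fit (adjusted p = 0.00481 and 0.00667).

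Without SCR DMSO replicate 2, 4 of the 42 genes passed as higher and 2 as lower, against 13.5% and 8.70% of all genes in the same fit. Those higher were ATRIP, the partner that brings ATR to single-stranded DNA (change 1.10, adjusted p = 0.0139), H2AFX (0.86, 0.0176), FANCE of the Fanconi core (0.82, 0.0258) and MDC1 (0.77, 0.0282). Those lower were RAD54L and XRCC4, the ligase partner of end joining (-1.56, adjusted p = 0.00199). Without that library ATM went from 0.58 to -0.18 and ATR from 0.68 to -0.12, and neither passed either way.

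Same-numbered libraries of SCR DMSO and SCR AAI correlated in the check used here, which cannot show that the numbers mark true pairs. With the replicate number as a block 9 genes passed as higher and RAD54L again as lower, against 14.7% and 6.40% of all genes. The 9 were ATRIP, CLSPN, H2AFX, MDC1, RNF8, RNF168, BRCA1, RAD51C and FANCD2, with adjusted p from 0.0272 (FANCD2) to 0.0428 (MDC1). Among the 42 genes, 8 were higher and 3 lower with no overlap between the groups, against 22.2% and 11.5% of all genes tested. The 8 included RAD51C, which was at 28.3, 18.4 and 27.0 CPM in SCR DMSO and at 45.3, 38.5 and 41.2 CPM in SCR AAI, and FANCD2 at 44.4, 19.1 and 45.2 against 66.5, 58.1 and 79.0 CPM.

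The second comparison was the same treatment in knockdown cells (siB AAI against siB DMSO). Here 21 of the 42 genes rose and 7 fell (7 and 2 with the 2-fold limit). Of 14928 genes tested, 30.4% rose (13.9% with the 2-fold limit) and 21.8% fell (5.79% with it). The median change was 0.45 over the 42 genes and 0.096 over all genes. MDC1 rose 3.53-fold in its mean, the most of any of the 42, followed by BRCA2, CLSPN and BRCA1, and the means of XRCC4, FANCF and RAD54L fell the most. With all 4 groups in 1 fit, which takes in the spread of the SCR DMSO libraries, 4 rose and 5 fell, against 3053 and 2088 of the 14928 genes tested.

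In the checkpoint branch, 4 of 7 genes rose and 1 fell. CLSPN encodes claspin, the adaptor through which ATR activates its effector kinase, and was at 59.2, 29.2 and 31.8 CPM in siB DMSO and at 114, 85.3 and 82.8 CPM in siB AAI. ATR was at 54.3, 29.5 and 35.6 CPM in siB DMSO and at 85.2, 61.2 and 68.2 CPM in siB AAI. ATRIP was at 16.7, 15.6 and 16.2 CPM and then at 35.8, 21.4 and 26.04 CPM. In each of the 3 the lowest AAI library lay above the highest DMSO library, while siB DMSO replicate 1 was the highest DMSO library of each. The changes were 1.27 (SE 0.25, adjusted p = 0.00219) for CLSPN, 0.86 (SE 0.21, 0.00782) for ATR and 0.72 (SE 0.18, 0.00954) for ATRIP.

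ATM, the kinase of broken ends, rose by 0.84 (adjusted p = 0.0360), with groups that overlapped. CHEK1, the effector kinase downstream of ATR, fell by 0.49 (adjusted p = 0.0130), so that the adaptor CLSPN and the kinase it serves changed in opposite directions. TOPBP1, the activator of ATR, was at 0.48 (adjusted p = 0.0786) and CHEK2, the effector of ATM, at -0.28 (adjusted p = 0.156), and neither passed. CHEK1 overlaps ACRV1 and STT3A, and ACRV1 changed by 1.77 in this comparison from a mean of 0.483 CPM in siB DMSO, against 44.1 CPM for CHEK1.

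Of the 5 genes that mark chromatin at breaks, 3 rose. MDC1 was at 74.8, 71.2 and 69.5 CPM in siB DMSO and at 279.8, 239 and 243 CPM in siB AAI. The mean went from 71.8 ± 2.71 to 254 ± 22.7 CPM (SD, n = 3), a change of 1.80 (SE 0.10, adjusted p = 2.52e-06) that passed in all 14 alternatives run for it. MDC1 overlaps TUBB, a tubulin gene on the other strand with a mean of 2059 CPM in siB DMSO, and TUBB fell by 0.97 in the same comparison (adjusted p = 9.35e-05), the opposite direction.

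The ubiquitin ligases that act after MDC1 rose by less. RNF168 was at 51.9, 38.4 and 39.4 CPM in siB DMSO and at 78.8, 63.8 and 67.9 CPM in siB AAI, a change of 0.69 (adjusted p = 0.00345), and its groups did not overlap. RNF8 changed by 0.56 (adjusted p = 0.00418), also without overlap. TP53BP1, which reads the ubiquitin mark, was nearly level at 0.032 (adjusted p = 0.879). H2AFX was at -0.27 (adjusted p = 0.0720), with all 3 siB AAI libraries (274 to 291 CPM) below the lowest siB DMSO library (292 CPM).

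In end resection, 2 of 4 genes rose. RBBP8, which encodes CtIP, the cofactor that starts resection, was at 41.0, 21.7 and 28.0 CPM in siB DMSO and at 67.0, 50.03 and 53.8 CPM in siB AAI. The groups did not overlap, and the change was 0.93 (SE 0.22, adjusted p = 0.00550). RAD50 rose by 1.10 (SE 0.40, adjusted p = 0.0424) with groups that overlapped, while its complex partners MRE11A (0.10, adjusted p = 0.766) and NBN (-0.22, adjusted p = 0.465) did not pass.

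In recombination, 5 of 10 genes rose and 3 fell. BRCA2, a mediator of strand exchange, was at 22.0, 7.53 and 13.4 CPM in siB DMSO and at 45.1, 32.4 and 27.0 CPM in siB AAI. BRCA1 was at 60.3, 32.0 and 34.3 CPM and then at 119, 85.6 and 80.8 CPM. BRIP1, the helicase that binds BRCA1, was at 42.1, 21.5 and 23.8 CPM and then at 74.8, 52.98 and 49.8 CPM. None of the 3 overlapped between the groups. Their changes were 1.31 (SE 0.33, adjusted p = 0.00794), 1.19 (SE 0.24, 0.00249) and 1.04 (SE 0.25, 0.00650). BARD1, which forms a ubiquitin ligase with BRCA1, was at -0.23 (adjusted p = 0.281), and PALB2, which links BRCA1 to BRCA2, at 0.38 (adjusted p = 0.0860).

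The recombination genes XRCC2, RAD51C, XRCC3 and RAD51D, which belong to 1 protein family, were split. XRCC2 was at 30.2, 20.4 and 19.7 CPM in siB DMSO and at 46.2, 43.3 and 34.8 CPM in siB AAI, a change of 0.81 (adjusted p = 0.00512), and RAD51C rose by 0.59 (adjusted p = 0.00311). XRCC3 was at 82.4, 87.7 and 95.2 CPM in siB DMSO and at 59.7, 53.9 and 54.5 CPM in siB AAI, a change of -0.65 (adjusted p = 0.000999). RAD51D fell by 0.46 (adjusted p = 0.00868). All 4 were without overlap, so within this family 2 genes rose and 2 fell. RAD54L, at 54.9, 56.5 and 54.2 CPM in siB DMSO and at 34.0, 25.4 and 29.0 CPM in siB AAI, fell by 0.89 (SE 0.13, adjusted p = 0.000475), as it had in SCR cells. XRCC3 overlaps KLC1 on the other strand, which rose by 0.82 (adjusted p = 0.000177), and LRRC41 beside RAD54L fell by 0.37 (adjusted p = 0.0175).

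The RecQ helicases BLM (0.42, adjusted p = 0.131) and WRN (0.55, adjusted p = 0.0517) did not pass. In the Fanconi core complex, which places ubiquitin on the FANCD2 and FANCI pair, 2 of 7 genes rose and 2 fell. FANCM, the translocase that anchors the complex to DNA, was at 15.7, 6.31 and 8.03 CPM in siB DMSO and at 28.4, 19.5 and 17.3 CPM in siB AAI, and changed by 1.11 (SE 0.30, adjusted p = 0.0120). FANCF, an adaptor of the core, was at 10.3, 12.5 and 11.5 CPM and then at 4.86, 3.83 and 5.25 CPM, a change of -1.14 (SE 0.17, adjusted p = 0.000520). Neither gene overlapped between the groups, and the FANCF mean fell to 0.407 of its DMSO value.

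FANCA rose by 0.30 (adjusted p = 0.0349) and FANCC fell by 0.42 (adjusted p = 0.0258). With median-ratio size factors FANCA was at 0.18 (adjusted p = 0.180) and did not pass. FANCE, FANCG and FANCL, the subunit with ubiquitin ligase activity, lay between -0.028 and 0.096 and did not pass. FANCA overlaps ZNF276, which rose by 1.77 (adjusted p = 9.00e-06) from 20.96 to 74.2 CPM, against 107 and 132 CPM for FANCA. Both genes of the ID complex rose. FANCD2 was at 36.6, 34.5 and 35.3 CPM in siB DMSO and at 62.6, 62.5 and 67.1 CPM in siB AAI, a change of 0.84 (SE 0.11, adjusted p = 0.000215) with groups far apart, and FANCI rose by 0.61 (adjusted p = 0.00812).

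In end joining, 3 of 5 genes rose and 1 fell. PRKDC was at 759.8, 492 and 477 CPM in siB DMSO and at 996, 854 and 796 CPM in siB AAI, and rose by 0.64 (adjusted p = 0.0128) without overlap. XRCC6 rose by 0.27 (adjusted p = 0.0297) and its Ku partner XRCC5 was at 0.073 (adjusted p = 0.581). With median-ratio size factors XRCC6 was at 0.16 (adjusted p = 0.265) and did not pass. The ligase pair went apart. LIG4 rose by 0.79 (adjusted p = 0.0322) with overlap, while XRCC4 was at 5.90, 3.34 and 3.46 CPM in siB DMSO and at 0.694, 2.03 and 1.55 CPM in siB AAI. XRCC4 did not overlap between the groups and changed by -1.12 (SE 0.27, adjusted p = 0.00631), which at such levels understates the change, since the mean fell to 0.337 of its DMSO value.

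**Figure D2:**
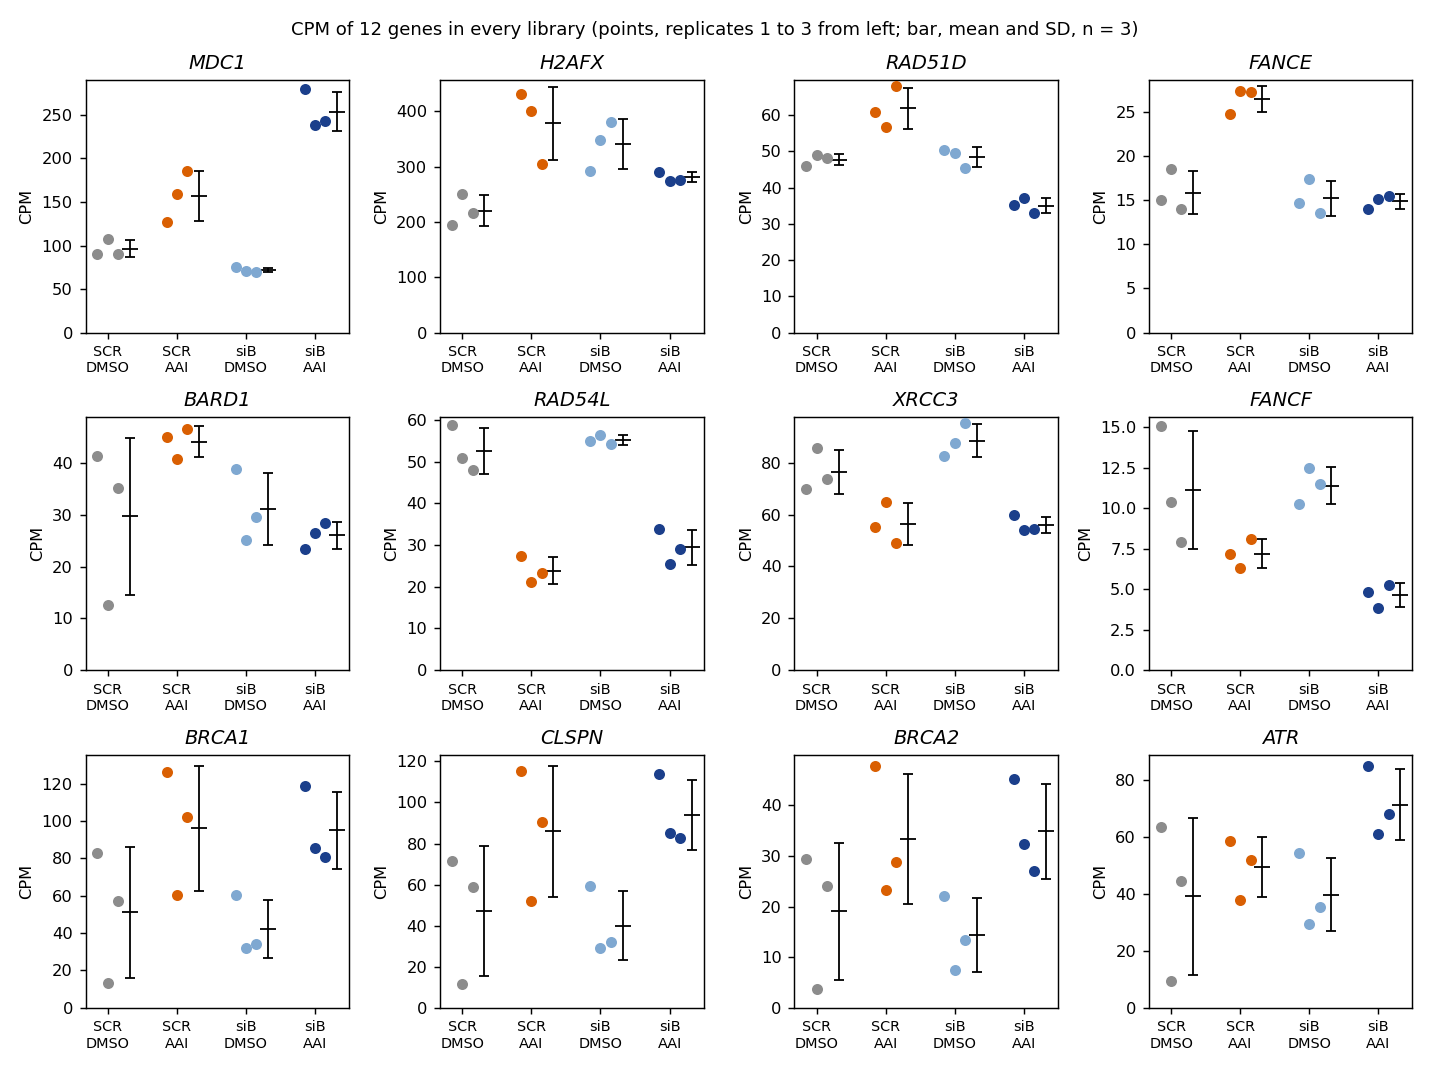
CPM of 12 genes in the 12 libraries, by group (points are libraries; the bar is the mean with the SD, n = 3; each axis starts at 0). MDC1 in siB AAI (239 to 279.8 CPM) lies above all other libraries, RAD54L falls in AAI in both SCR and siB cells, and SCR DMSO replicate 2 is the lowest library for BRCA1, CLSPN, BRCA2, ATR and BARD1.

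Across the 42 genes, 19 were higher and 9 lower in siB AAI with no overlap with siB DMSO, against 34.2% and 26.6% of all genes tested. Leaving out 1 library at a time left 15 to 25 genes higher and 6 to 8 lower. In the same fits 23.6% to 34.8% of all genes were higher and 16.8% to 22.7% lower. The genes XRCC3, RAD54L, FANCF, FANCD2, RAD51C, RAD51D, ATRIP and MDC1 passed in every one of the 14 alternatives, and XRCC4 in all 13 that tested it.

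**Figure D3:**
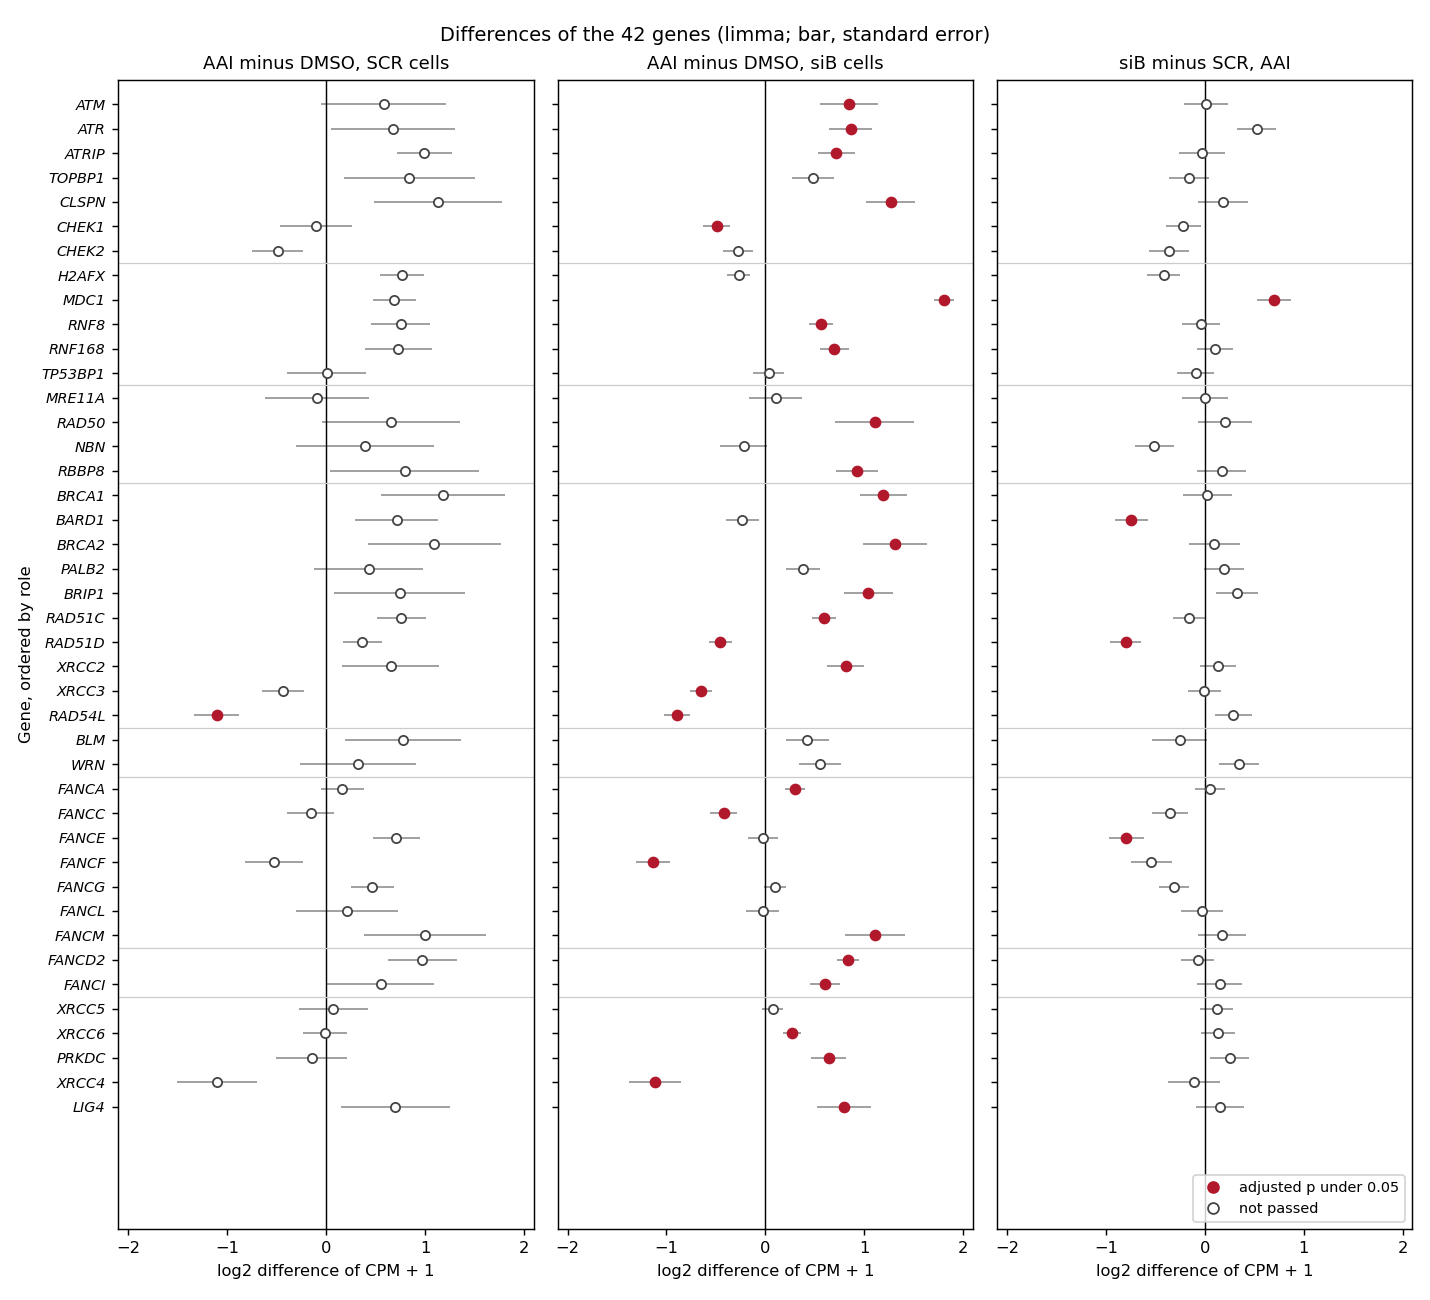
Differences of log2(CPM + 1) for the 42 genes, ordered by role, in 3 comparisons (points; bars are limma's SE; filled points passed an adjusted p of 0.05). In SCR cells RAD54L alone is filled, in siB cells 21 genes are filled to the right and 7 to the left, and between the AAI groups MDC1 is filled to the right and RAD51D, FANCE and BARD1 to the left.

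The third comparison set knockdown against control cells under AAI (siB AAI against SCR AAI), where POLR2A itself differed by -1.61. Of the 42 genes, 1 was higher and 3 were lower, none by 2-fold. Of 14946 genes tested, 5.49% were higher (3.04% with the 2-fold limit) and 3.79% lower (0.629% with it). The median difference was 0.0094 over the 42 genes and 0.0023 over all genes. The 4 that passed were MDC1, RAD51D, FANCE and BARD1.

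MDC1, at 127, 159 and 185 CPM in SCR AAI, was at 239 to 279.8 CPM in siB AAI, with a difference of 0.70 (SE 0.17, adjusted p = 0.0247). RAD51D was at 60.8, 56.8 and 68.0 CPM in SCR AAI and at 35.1, 37.1 and 32.9 CPM in siB AAI, a difference of -0.80 (SE 0.16, adjusted p = 0.0105). FANCE was at 24.7, 27.4 and 27.2 CPM in SCR AAI and at 13.9, 15.1 and 15.5 CPM in siB AAI, a difference of -0.79 (SE 0.17, adjusted p = 0.0162). Each of these genes was without overlap between the AAI groups.

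BARD1 was at 45.1, 40.9 and 46.7 CPM in SCR AAI and at 23.4, 26.5 and 28.5 CPM in siB AAI, a difference of -0.74 (SE 0.17, adjusted p = 0.0178), again without overlap. Its partner BRCA1 differed by 0.027 (adjusted p = 0.963). In SCR DMSO and siB DMSO, RAD51D ran from 45.4 to 50.4 CPM and FANCE from 13.5 to 18.6 CPM. Both genes thus lay above this DMSO range in all 3 SCR AAI libraries. In siB AAI, RAD51D lay below it in all 3 libraries and FANCE within it. RAD51D overlaps an unnamed read-through gene of the annotation with no test here.

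Same-numbered libraries of these groups correlated as well. With the block, 2 genes were higher (MDC1 and ATR) and 6 lower (RAD51D, FANCE, BARD1, NBN, H2AFX and FANCF), against 15.2% and 13.8% of all genes in that fit. ATR differed by 0.53 (adjusted p = 0.113 without the block and 0.0032 with it). No member passed without SCR AAI replicate 3 or without siB AAI replicate 3. Without siB AAI replicate 1 FANCE and RAD51D passed, and without siB AAI replicate 2 RAD51D passed, so that MDC1 and BARD1 were lost without any 1 of the siB AAI libraries. Without overlap, 2 of the 42 genes were higher and 6 lower, against 15.1% and 15.8% of all genes.

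Whether the AAI change itself differed between siB and SCR cells was tested as an interaction over all 4 groups. It passed for 2 of the 42 genes, both at the chromatin of breaks and in opposite directions, while 1.46% of 15325 genes passed as higher and 0.157% as lower. MDC1 changed by 1.11 more in siB than in SCR cells (SE 0.22, adjusted p = 0.0283). H2AFX changed by -1.04 (SE 0.23, adjusted p = 0.0496), from a mean of 221 ± 27.8 to 379 ± 66.0 CPM in SCR cells and from 341 ± 44.9 to 281 ± 9.05 CPM in siB cells (SD, n = 3). RAD51D came next at -0.82 (adjusted p = 0.0539).

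Both calls were close to the threshold: of 19 alternatives, MDC1 passed in 6 and H2AFX in 5, with adjusted p up to 0.181 and 0.222. Without SCR DMSO replicate 2, 5 genes passed, namely MDC1 and PRKDC (1.16, adjusted p = 0.0462) as higher and H2AFX, RAD51D (-0.84, 0.0242) and FANCE (-0.85, 0.0397) as lower, against 3.25% and 3.34% of all genes. BRCA1 and CLSPN are examples of genes that passed as higher in siB cells (1.19 and 1.27) but not in SCR cells. In SCR cells their changes were 1.18 and 1.13, or 0.41 and 0.33 without SCR DMSO replicate 2. The interaction did not pass for BRCA1 (0.011, adjusted p = 0.997) or CLSPN (0.14, 0.983), and a difference between the siRNAs was not shown. These values near 0 rested on SCR DMSO replicate 2: without it they were 0.78 (adjusted p = 0.283) for BRCA1 and 0.94 (0.209) for CLSPN, which did not pass either.

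The knockdown without AAI (siB DMSO against SCR DMSO) gave no call. This test did not call the target POLR2A either, although its mean was 284 CPM in SCR DMSO and 140 CPM in siB DMSO without overlap (-1.01). The lack of calls therefore does not show that the 42 genes were unchanged. None of the 42 genes passed in either direction in limma, and of 13606 genes tested 0% were higher and 0% lower, also with the 2-fold limit. All adjusted p values of the 42 rounded to 1, while 1 gene was higher and 2 were lower at an unadjusted p under 0.05. These were H2AFX (0.62, at 195 to 250.4 CPM against 292 to 381 CPM) and, lower, CHEK2 (-0.57) and MDC1 (-0.41, at 90.4 to 107 CPM against 69.5 to 74.8 CPM). The share of all genes at that unadjusted limit was not counted. Voom on recovered reads, the replicate block and the fit of all 4 groups also called 0 of the 42. Without overlap, 1 gene was higher and 3 lower, against 8.28% and 3.64% of all genes. The median difference went from 0.063 to -0.45 without SCR DMSO replicate 2, so that the direction of most genes rested on that library.

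Gene span moved with these results. In SCR cells the 10 long genes had a median AAI change of 0.45 with all libraries and -0.19 without SCR DMSO replicate 2, when 1 of the 10 lay above 0. For the 9 short genes it was 0.69 and 0.60, and for the 23 medium genes 0.65 and 0.029. Over all genes tested the medians without that library were -0.37 for long and 0.21 for short genes, so the 42 genes lay in the same order as the rest. The 4 genes that passed as higher without that library (ATRIP, H2AFX, FANCE and MDC1) were all short.

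In siB cells the order was the other way round in these genes. The medians were -0.025 for the 9 short genes (3 rose and 3 fell), 0.42 for the 23 medium genes (12 rose and 2 fell) and 0.74 for the 10 long genes (6 rose and 2 fell). Over all genes tested they were 0.049, 0.19 and -0.031. The balance of long and short genes differed within siB DMSO too. The mean log2 level of long minus short genes was 0.29 in replicate 1 and -0.043 and -0.047 in the others. It was -0.13 to -0.017 in siB AAI, and -0.40, -0.33 and -0.067 in SCR AAI replicates 1 to 3. The part of this balance in the changes was not tested.

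**Figure D4:**
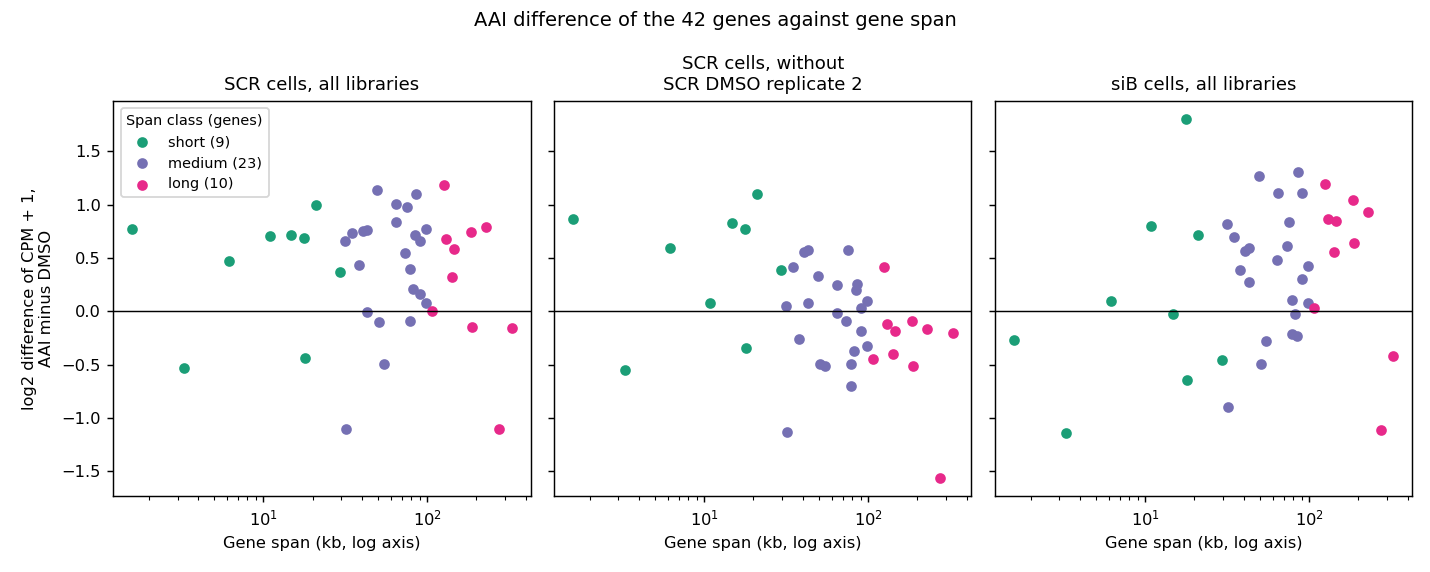
AAI difference of log2(CPM + 1) of the 42 genes against gene span in kb (log axis), coloured by span class. In SCR cells the long genes lie mostly above 0 with all libraries (median 0.45) and below 0 without SCR DMSO replicate 2 (median -0.19), while in siB cells 8 of 10 long genes lie above 0.

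All 52 partner genes of the same pathways were tested. In SCR cells without SCR DMSO replicate 2, 5 rose and 4 fell with AAI, against 13.5% and 8.70% of all genes. With all libraries 3 rose and 2 fell, against 8.98% and 3.36% of all genes. The rises were EXO1, the resection exonuclease (1.67, adjusted p = 0.0358), CDC25A, a phosphatase that drives S phase (1.19, 0.00707), and RFWD3, a ubiquitin ligase of the Fanconi pathway (1.02, 0.0283). The recombination gene RAD51B fell (-1.27, adjusted p = 0.0331). Without that library the changes were 1.20 for EXO1, 1.23 for CDC25A, 0.84 for RFWD3 and -1.49 for RAD51B, and all 4 passed.

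In siB cells 15 of the 52 partners rose and 11 fell, against 30.4% and 21.8% of all genes. With the 2-fold limit 3 rose and 3 fell, against 13.9% and 5.79% of all genes. Those past 2-fold included the end joining polymerase POLQ (1.55, adjusted p = 0.000517), the nuclease ERCC4 (1.48, 0.000203) and EXO1 (1.11, 0.000118) as higher, and the ligase LIG3 (-1.27, 7.3e-05) and the Fanconi partner FAAP100 (-1.22, 4.3e-05) as lower. By branch, 6 recombination partners rose and 2 fell of 14, and 1 end joining partner rose and 3 fell of 7. Between the AAI groups MUS81 was higher (0.68) and CDC25A lower (-0.57), against 5.49% and 3.79% of all genes. Under DMSO 0 of 52 passed, and 0% of all genes.

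The 20 cell cycle genes, set beside these genes because many share S and G2 phase expression, moved in both directions. With AAI 2 rose and 1 fell in SCR cells, against 8.98% and 3.36% of all genes. In siB cells 6 rose and 4 fell, against 30.4% and 21.8% of all genes. Their medians in SCR and siB cells were 0.12 and 0.17, against 0.18 and 0.096 over all genes. Without SCR DMSO replicate 2, 3 rose and 2 fell in SCR cells, against 13.5% and 8.70% of all genes. The median was then 0.046, against 0.064 over all genes. The mitotic cyclin CCNB1 fell in both (-1.37 and -1.38), E2F1 rose in both (2.34-fold and 2.01-fold in the means), and the ribonucleotide reductase subunit RRM2 fell in siB cells (-1.46) with an interaction of -1.40 (adjusted p = 0.0163; -1.22 without that library, 0.00881). In bulk RNA a change in the share of cells in a phase and a change in RNA per cell cannot be told apart, and the part of the cell cycle in the results above was not tested.

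Markers of other cell types had a sum over 9 genes of 65.0 to 100.4 CPM in SCR DMSO, 78.3 to 87.5 in SCR AAI, 70.6 to 87.5 in siB DMSO and 73.6 to 84.3 CPM in siB AAI. CD68 (macrophages), with group means from 68.7 to 79.0 CPM, made up most of it. The tubule markers UMOD and AQP2 were each under 0.19 CPM in every library of SCR DMSO, SCR AAI and siB DMSO, and UMOD and the endothelial VWF in every siB AAI library, while AQP2 had a mean of 1.24 CPM in siB AAI. Of the 4 tested in siB cells, PTPRC (leukocytes) and PECAM1 (endothelium) rose with AAI, to means of 2.70 and 4.65 CPM. The sum of the 17 proximal tubule and epithelial markers was 2051 to 2233 CPM in siB DMSO and 1501 to 1586 CPM in siB AAI. In SCR cells the groups overlapped, at 1892 to 2452 CPM in SCR DMSO and 1661 to 1932 CPM in SCR AAI. Among the 11 of these markers tested in siB cells, 2 rose and 6 fell with AAI, against 30.4% and 21.8% of all genes. The part of the markers in the changes of the 42 genes was not tested.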

How the data were processed

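HK-2 poly-A RNA was sequenced in 12 libraries, grouped by sample title into 4 groups of 3. The labels' treatment field reads DMSO for all 12, also for those titled AAI, and was not used. Per the paper's methods, paired-end reads were aligned to hg38 and counted per gene on the BioJupies platform. The aligner, its version and the strand setting were not given in the sources used here. The authors deposited log10 values, and their sums show log10 of CPM plus 1. The values were turned back into CPM, and 100% of them gave whole reads within 0.1 once scaled by depth. Library depth was recovered that way, and 3 reads correspond to 0.0701 to 0.189 CPM, which covers counting error only. In the table, 28 gene names had been turned into dates.

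Genes with at least 1 CPM in at least 3 of the libraries fitted were tested on log2(CPM + 1) with limma 3.58.1 (R 4.3.3; lmFit and eBayes with trend), 2 groups at a time and all 4 for the interaction, with Benjamini-Hochberg adjustment over all genes tested. The pseudocount understates changes of low genes. A gene passed at an adjusted p under 0.05, and counts with a 2-fold limit are given beside. The steps were tested on simulated reads with known changes and the same spread setting in every library. Changes of 2-fold had to be recovered only in part there. An outlying library such as SCR DMSO replicate 2 was not simulated. Figures were drawn with matplotlib 3.10.9 in Python 3.11.15.

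All 42 genes were described by role. Values in every library were printed for up to 20 genes that passed in any comparison, first those without overlap and by size of change, and the other 11 that passed by range or change. Partner genes past 2-fold were named, up to 3 each way, and some of these are not reported here. The members, gene lists and rules were chosen with earlier results of these data known.

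Replicate numbers come from the sample titles. Deviations from group means correlated at 0.338 to 0.473 for same-numbered SCR DMSO and SCR AAI libraries and at 0.292 to 0.614 for SCR AAI and siB AAI. For these comparisons the results with the replicate block are given beside the main fits. The main fits all had no block, so their SE and adjusted p are unpaired. The correlations ran from 0.0259 to 0.210 for siB DMSO and siB AAI and from -0.193 to 0.726 for SCR DMSO and siB DMSO. These were not taken as paired. SCR DMSO and siB AAI ran from -0.0326 to 0.394. Libraries with unlike numbers were not correlated, so the pairing was not established. The settings varied were the pseudocount (0.1), the filter (none, or a mean of at least 5 CPM), the scaling (median-ratio size factors, or CPM without the RNA AC010970.2), voom on recovered reads, the replicate block, all 4 groups in the fit and leaving out each library.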

Additional observations from a re-analysis of the deposited data

Results flagged for a closer look

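MDC1 and H2AFX are singled out because their AAI change differed between siB and SCR cells in limma's interaction test. For MDC1 the change in siB cells exceeded that in SCR cells by 1.11 on the log2(CPM + 1) scale (adjusted p = 0.0283), and all 3 siB AAI libraries lay above all other libraries. For H2AFX the difference was -1.04 (adjusted p = 0.0496), with SCR AAI above SCR DMSO in all libraries and siB AAI below siB DMSO in all libraries. Adjusted p reached 0.181 for MDC1 and 0.222 for H2AFX over the 19 alternatives.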

How the results depend on the processing

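No call on a gene turned its direction among the alternatives run. Changes that had not passed did turn, and without SCR DMSO replicate 2 the median of the 42 genes went from 0.62 to -0.05 for AAI in SCR cells and from 0.063 to -0.45 for siB under DMSO. Shares of all genes called in the same fit are in brackets below. Of genes higher with AAI in SCR cells, none passed in limma with all libraries (8.98%). The number was 1 without AC010970.2 in the CPM (9.92%), 8 with all 4 groups in the fit (17.6%) and 9 with the replicate block (14.7%). With 1 library left out it was 0 to 4 (5.4% to 13.5%). Of genes lower there, 1 passed (3.36%), against 2 with median-ratio size factors (5.7%) and 3 with all 4 groups (9.02%). With 1 library left out, 0 to 2 were lower (0.829% to 8.7%). In siB cells 21 genes rose (30.4%) and 7 fell (21.8%), against 19 (26.7%) and 8 (27.2%) with median-ratio size factors. With all 4 groups 4 rose there, and 15 to 25 rose with 1 library left out. Between the AAI groups 1 gene was higher (5.49%), against 0 without a filter (3.38%) and 2 with the replicate block (15.2%). With 1 library left out, 0 to 2 were higher (1.01% to 8.74%). There 3 were lower (3.79%), against 6 with the block (13.8%) and 0 to 4 with 1 library left out (0.415% to 5.34%). The interaction passed for 2 genes (1.46% of all genes higher and 0.157% lower). It passed for 0 with a pseudocount of 0.1, a mean of at least 5 CPM, median-ratio size factors or voom. With 1 library left out it passed for 0 to 5 (0.509% to 3.25% higher and 0.0196% to 3.34% lower). The block in siB cells, where numbers were not taken as pairs, gave 24 higher (34%) and 7 lower (23.6%). Median-ratio size factors moved the median of all genes from 0.18 to -0.0074 in SCR cells and from 0.096 to -0.015 in siB cells, and the calls over all genes from 1277 higher and 478 lower to 1064 and 809 in SCR cells and from 4535 and 3259 to 3958 and 4029 in siB cells. The cause of these shifts was not tested.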
